A study of Mus musculus with 60 samples.

Results

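The T cell receptor (TCR) alpha chain of the mouse is built from V segments, called TRAV, many of which exist in near-identical copies. The copies described here are the TRAV segments whose name carries the letter D or N directly after the number, such as TRAV14D-2 and TRAV14N-3. They were found by name among the V segments of the CD4 and CD8 TCR alpha (TCRA) clonotype tables, with TRAV11D, TRAV8D-1 and TRAV16N left out. This gave 59 of the 109 V names listed, 32 D copies and 27 N copies. The ending DV, which marks a segment shared with the delta chain, was not read as a D copy.

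The libraries came from donor T cells in a mouse model of graft-versus-host disease, in which transplanted T cells attack the tissues of the recipient. Lethally irradiated WT BALB/c recipients received T cells of C57BL/6 donors together with bone marrow of WT C57BL/6 mice from which T cells had been depleted, an allogeneic hematopoietic cell transplantation (HCT). The T cell donors were WT, STAT3ko (Stat3 deleted in T cells by CD4-Cre) or STAT3koPD-1ko (the same deletion on a PD-1-/- background). STAT3 is a transcription factor downstream of cytokine receptors, and PD-1 is an inhibitory receptor of activated T cells. Each table held 15 libraries. Of these, 3 came from spleen (1 per genotype), are titled naive, and are labelled before HCT here after the study's term. The other 12 were of day 6, with 2 libraries for each genotype in liver and in gut. Each day 6 library was made from lymphocytes pooled from 3 recipients, sorted as H-2Kb+ TCRβ+ and CD4+ or CD8+. H-2Kb marks cells of donor origin, and donor ages were not given in the sources used here. CD4 and CD8 mark the helper and cytotoxic lineages, and the tables hold no marker genes against which the sorts could be checked.

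A TCRA gene is made when 1 TRAV segment is joined to 1 TRAJ segment, and the receptor contacts antigen through loops that include the junction, the complementarity determining region 3 (CDR3). In C57BL/6 mice a central stretch of the TRAV array was copied more than once, which left D, N and unlettered versions of many families. A rearrangement on an allele can be replaced by a later one that joins a more upstream TRAV to a more downstream TRAJ, so position along the locus and TRAJ choice are known to be linked.

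In the GENCODE annotation of GRCm38 (mm10, the build named in the labels) the copies lay in blocks on the plus strand of chromosome 14. The 32 D copies spanned positions 52683964 to 53079045, the 27 N copies 53091346 to 53370575, and the 32 unlettered segments of the same families 53390635 to 53763694. The TRAJ segments followed, from 54155005 to 54218842, with numbers that fall along the locus. A high TRAJ number is therefore near the TRAV array and a low one far from it, and the D block is the most distant of the 3 blocks.

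The reference transcripts of the copies are so alike that many hold no base, where they align, by which reads could be told apart. Of 24 families with both a D and an N copy listed, 14 had D and N transcripts with no mismatch where they aligned. TRAV7D-2 and TRAV6D-6 were in the same way identical to the unlettered TRAV7-2 and TRAV6-6. Together 30 of the 59 copies had an identical listed partner, and these 30 names carried 56.4% ± 1.40 (SD, n = 15 libraries) of the usage of the copies in CD4 and 60.3% ± 1.28 in CD8. Stretches of 60 bases from the reference transcripts are shown for 3 families, with capitals at the positions where the 3 copies differ. Family 12-3 is shown because its D and N copies share every base of the stretch while nearly all usage fell on the N name, and families 10 and 14-3 because their D and N copies differ and both were used.
TRAV12D-3: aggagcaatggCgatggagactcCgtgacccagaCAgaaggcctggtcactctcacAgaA
TRAV12N-3: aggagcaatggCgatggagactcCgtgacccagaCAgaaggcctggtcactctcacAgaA
TRAV12-3: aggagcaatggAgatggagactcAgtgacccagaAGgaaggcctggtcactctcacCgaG
TRAV10D: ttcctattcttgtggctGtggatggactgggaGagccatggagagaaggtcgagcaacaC
TRAV10N: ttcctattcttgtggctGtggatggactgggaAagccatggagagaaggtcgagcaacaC
TRAV10: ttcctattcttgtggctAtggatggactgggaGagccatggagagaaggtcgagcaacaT
TRAV14D-3-DV8: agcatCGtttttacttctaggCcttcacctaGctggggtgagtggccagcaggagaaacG
TRAV14N-3: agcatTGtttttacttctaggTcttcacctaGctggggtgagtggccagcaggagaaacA
TRAV14-3: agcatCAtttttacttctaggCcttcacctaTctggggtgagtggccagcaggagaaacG
In the annotation TRAV12D-3 lies at chr14:52929789-52930282, TRAV12N-3 at chr14:53240745-53241244 and TRAV12-3 at chr14:53621657-53622245. TRAV10D lies at chr14:52810934-52811496, TRAV10N at chr14:53122114-53122610 and TRAV10 at chr14:53505727-53506286. TRAV14D-3-DV8 lies at chr14:53078452-53079045, TRAV14N-3 at chr14:53370077-53370575 and TRAV14-3 at chr14:53763173-53763694. All 9 are annotated as TR_V_gene.

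The segment names need a limit of their own. Each CDR3 amino acid sequence was listed once in a table, with a single V and a single J name for all the reads that carry it. Of the 25521 CDR3 listed in both the CD4 and the CD8 table, 99.9% had the same TRAJ name in both, but only 29.9% had the same TRAV name. Where the CD4 table named a D copy, the CD8 table gave the same name for 15.6% of the CDR3, and for N copies this was 21.9%. For segments that have no D or N copy the same name stood in both tables for 54.2%. Of the CDR3 with a D copy in CD4, 35.5% had a D copy in CD8, 18.5% an N copy and 36.4% an unlettered counterpart, where over all shared CDR3 the CD8 shares were 21.6%, 19.0% and 41.7%. The CDR3 shared by both tables carried 77.4% ± 4.13 (SD, n = 15) of the usage of the copies in CD4, so the usage below is usage of names.

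Leading clonotypes are shown at the level of bases. Each is given with the bases that match the named V segment in capitals, read from the first base of the codon of the conserved cysteine. The first pair is the most frequent D clonotype of CD8, joined to TRAJ22, and the second is the most frequent N clonotype of CD4, joined to TRAJ13.
TRAV14D-2 in CD4: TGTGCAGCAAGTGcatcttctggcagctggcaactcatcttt
TRAV14D-1 in CD8: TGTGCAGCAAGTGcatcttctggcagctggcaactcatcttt
TRAV14N-3 in CD4: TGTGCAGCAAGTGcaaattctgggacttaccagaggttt
TRAV7-4 in CD8: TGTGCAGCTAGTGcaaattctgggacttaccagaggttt
The TRAJ22 clonotype had the same listed bases in both tables and was named TRAV14D-2 in CD4 and TRAV14D-1 in CD8. It made up 0.139% ± 0.0406 (SD, n = 15) of a CD4 library and 0.170% ± 0.0717 of a CD8 library. The TRAJ13 clonotype, the same CDR3 in amino acids, was named TRAV14N-3 in CD4 and the unlettered TRAV7-4 in CD8. Here the listed bases differed between the tables, and each matched its own named segment over 13 bases. It was at 0.249% ± 0.142 (n = 15) in CD4, from 0.0681% in the STAT3koPD-1ko library labelled before HCT to 0.659% in a STAT3ko gut library. Over all clonotypes of the copies, the CDR3 of the D copies matched their named segment over a median of 11 bases and those of the N copies over 12. The named segment was alone in the longest match for only 2.67% of the CD4 CDR3 with a D copy and 8.65% of those with an N copy.

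The libraries also differed in what the tables listed. The listed frequencies summed to between 81.6% and 99.1% of a CD4 library and between 79.5% and 99.1% of a CD8 library, lowest in the gut libraries of number 2. Usage was therefore divided by the listed sum. Over the clonotypes of the copies, the libraries labelled before HCT shared 53.5% ± 3.96 (SD, n = 3) of their frequency with liver library 1 of the same genotype in CD4, against 24.4% ± 4.16 with liver library 2. In CD8 these overlaps were 50.6% ± 6.85 and 18.2% ± 2.63. Comparisons of day 6 with before HCT were therefore repeated without the liver libraries of number 1, and comparisons of gut with liver without the gut libraries of number 2. As both tables list each clonotype as a fraction of its library, depth is unknown for every value.

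Together the D and N copies carried 48.8% ± 2.31 (SD, n = 15) of the listed frequency in CD4 and 35.3% ± 1.64 in CD8. In CD4 the D names summed to more than the N names in 15 of 15 libraries, at 29.2% ± 1.74 against 19.6% ± 1.12. The sums cover different families, and TRAV7D-2, the most used D name at a mean of 7.15%, has no N copy listed. Some N names have no D copy listed either. Names with an identical listed partner carried 56.4% of the usage of the copies in CD4. As each CDR3 bears 1 V name in a whole table, the 15 libraries are not independent on this point. The D range of 25.2% to 31.0% lay above the N range of 17.5% to 21.4%. In CD8 the sums of the 2 classes were level, at 17.8% ± 1.02 for D and 17.6% ± 1.08 for N, with D higher in 9 of 15 libraries. These sums also cover different families, and sums over matched families are not given here. TRAV3D-3 (mean 3.601% in CD8) and TRAV7D-2 (2.26%) have no N copy listed, and TRAV7N-6 has no D copy listed. On the N side, TRAV12N-3 was at 7.41% and its identical partner TRAV12D-3 at 0.002%. Level sums therefore do not show that the D and N copies of a family were used alike. The log2 ratio of D over N was 0.58 ± 0.10 in CD4 and 0.01 ± 0.11 in CD8. The tables were joined separately and name the same CDR3 differently, so the 2 lineages are set side by side without a test. The unlettered counterparts carried 37.7% ± 1.88 in CD4 and 30.5% ± 1.27 in CD8.

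**Figure D1:**
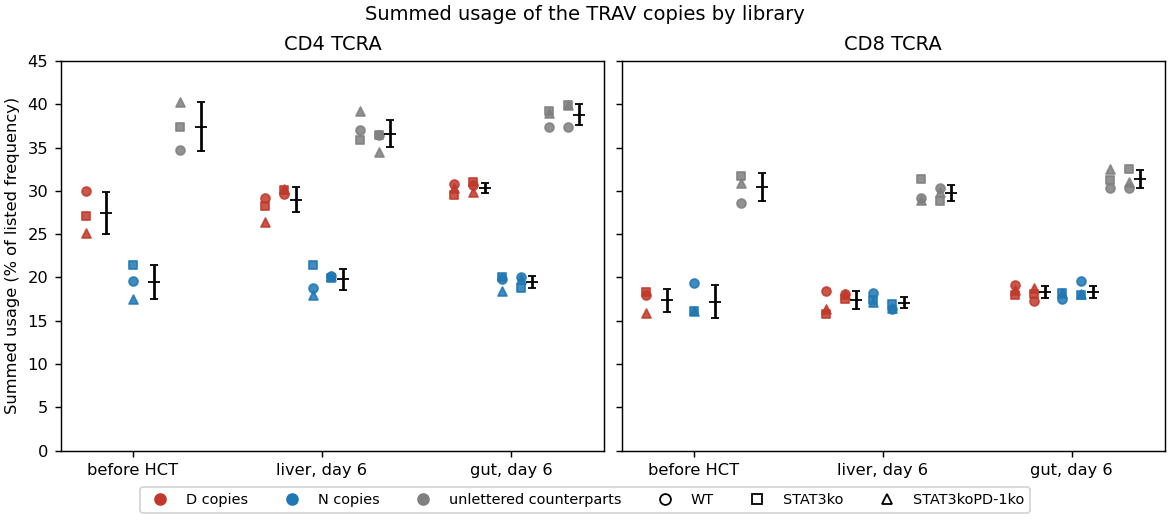
Summed usage, in percent of the listed frequency of a library (vertical axis), of the D copies, the N copies and the unlettered counterparts in each library by place, with the mean and SD beside the points and a symbol for each genotype. In CD4 the D points (25.2% to 31.0%) lie above all N points (17.5% to 21.4%), whereas in CD8 the D and N points overlap.

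Usage was concentrated in few names. In CD4, 20 of the 59 copies reached a mean usage of 0.5%, 18 lay between 0.1% and 0.5%, and 21 were below 0.1%. In CD8 the counts were 17, 23 and 19. The 5 most used D copies carried 62.1% of all D usage in CD4 and 56.6% in CD8, and the 5 most used N copies 75.2% and 71.8%. The copies that were listed at 0 in at least 1 library, 8 in CD4 and 7 in CD8, all had a mean usage below 0.1%.

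In CD4, TRAV7D-2 was the most used copy. Its usage had a lowest value of 5.47%, a median of 7.14% and a highest value of 8.82% over the 15 libraries. The identical TRAV7-2 was at a mean of 0.0005%, so almost all reads of the pair bore the D name. TRAV14N-3 followed with 4.91% ± 0.556 (SD, n = 15), TRAV14D-2 with 4.49% ± 0.516 and TRAV10N with 3.59% ± 0.429. The next places, with means from 2.39% down to 2.01%, were held by TRAV6N-7, TRAV14D-3-DV8, TRAV7D-5, TRAV14D-1, TRAV4N-4 and TRAV3D-3, whose neighbours in this order differed by less than their SD. The rest of the copies at or above 0.5% lay between 0.523% (TRAV5N-4) and 1.83% (TRAV10D).

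In CD8 the leading copy was TRAV12N-3, with a lowest usage of 6.21%, a median of 7.49% and a highest of 9.26%. In CD4 the same name had a median of 1.79%. TRAV3D-3 was second in CD8 at 3.601% ± 0.501 (SD, n = 15), against 2.01% ± 0.246 in CD4. Its annotated N copy, TRAV3N-3, has an identical transcript over 427 aligned bases and is not among the names listed. TRAV7D-2 followed at 2.26% ± 0.251, below its CD4 level. TRAV14N-3 stood at 0.663% ± 0.114 and TRAV14D-2 at 0.826% ± 0.142, both far under their CD4 levels. The part of a change of name between the tables in these differences was not tested. The TRAJ22 clonotype shown above, for one, bears TRAV14D-2 in CD4 and TRAV14D-1 in CD8. TRAV10N, TRAV6N-7, TRAV7D-5, TRAV14D-1, TRAV10D, TRAV6D-7 and TRAV12D-2 filled the other leading places, from 1.08% to 1.82%. No single clonotype made up more than 7.29% of TRAV12N-3 in any CD8 library. In TRAV7N-4, by contrast, 1 clonotype reached 52.9% of the usage of the segment in a CD8 library.

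The D and N names of a family rarely held equal usage. Among the 14 identical pairs in CD4 the more used name held a median of 91.1% of the pair, and in 11 of the 14 the same copy led in 15 of 15 libraries (6 D, 5 N). Among the 10 pairs whose transcripts differ, the more used name held a median of 80.2%, and the same copy led in every library in 7 (2 D, 5 N). In CD8 the medians were 88.2% and 71.5%. The aligned reference transcripts of identical copies hold no base by which reads could be separated. The split within such a pair is therefore uncertain, and only its sum can be read as usage of the family.

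The split of family 12-3 was nearly complete. TRAV12N-3 held 1.83% ± 0.371 (SD, n = 15) in CD4 and 7.41% ± 0.702 in CD8, and its identical partner TRAV12D-3 was at 0.003% and 0.002%. TRAV12-3, the unlettered copy, was at 0.643% and 0.552%. In families 14-1 and 7-5 the D name took the usage. TRAV14D-1 was at 2.05% ± 0.253 and TRAV7D-5 at 2.15% ± 0.546 in CD4, while TRAV14N-1 and TRAV7N-5 were below 0.01%. In family 4-4 the N name did, with TRAV4N-4 at 2.02% ± 0.315 and TRAV4D-4 at 0.003%.

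In families 10, 14-3 and 7-4 the D and N transcripts differ, and both copies were above 0.5% in CD4. TRAV10N (3.59% ± 0.429) exceeded TRAV10D (1.83% ± 0.314) in 15 of 15 CD4 libraries and in 15 of 15 CD8 libraries (1.82% ± 0.285 against 1.18% ± 0.264). The 2 transcripts differ at 3 of 343 aligned bases. TRAV14N-3 exceeded TRAV14D-3-DV8 in 15 of 15 CD4 libraries (4.91% ± 0.556 against 2.31% ± 0.380) and in 12 of 15 CD8 libraries (0.663% ± 0.114 against 0.479% ± 0.173). In family 7-4 the order was the other way, with TRAV7D-4 at 1.54% ± 0.319 and TRAV7N-4 at 0.626% ± 0.152 in CD4 and D above N in every library of both tables. Families 6-7 and 5-4 have identical D and N transcripts and yet both names were used. TRAV6N-7 was at 2.39% ± 0.377 and TRAV6D-7 at 1.12% ± 0.218 in CD4, and TRAV5N-4 at 0.523% ± 0.141 and TRAV5D-4 at 0.555% ± 0.125. The unlettered TRAV5-4 (1.97%) and TRAV7-4 (2.61%) were used more than either of their copies in CD4, and TRAV14-3 (1.93%) less.

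**Figure D2:**
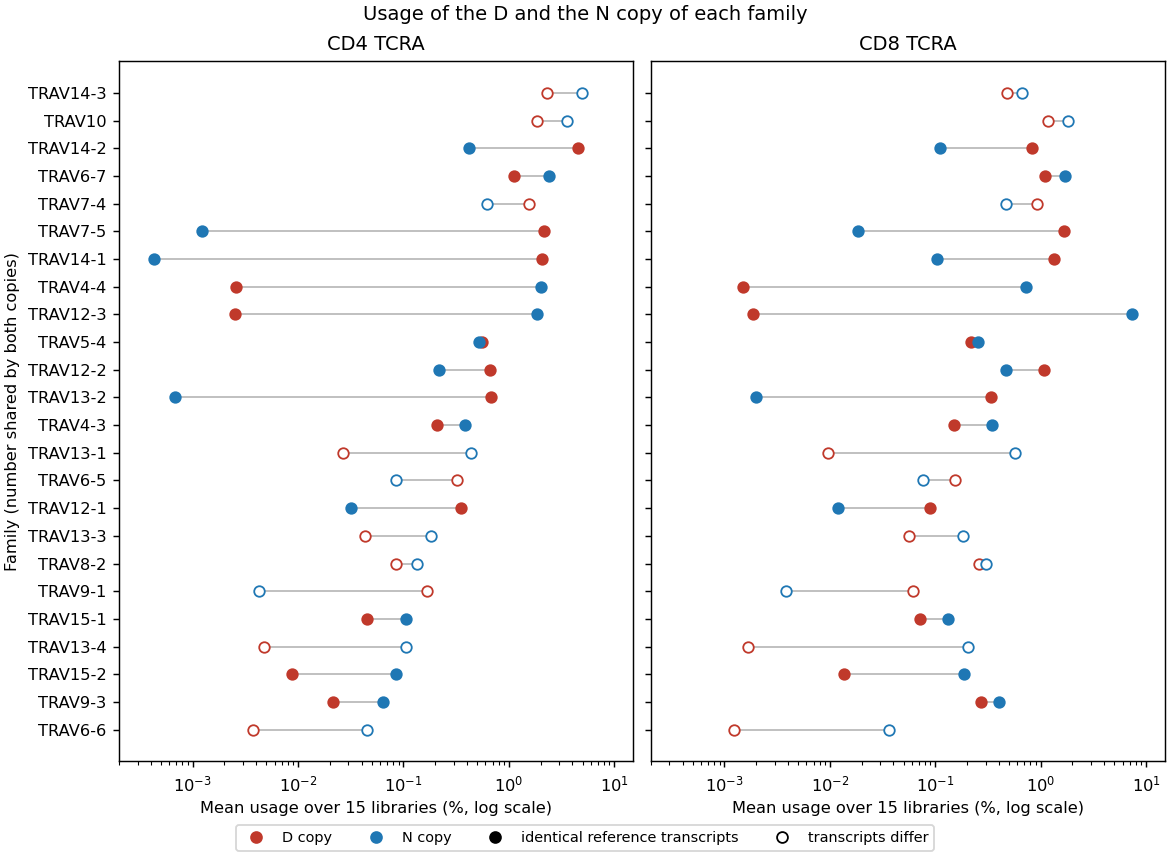
Mean usage over 15 libraries, in percent on a log scale (horizontal axis), of the D and the N copy of each of 24 families in CD4 and CD8, with filled points where the reference transcripts of the pair have no mismatch. A number of identical pairs, such as TRAV12-3 (0.003% and 1.83% in CD4), are split far apart, while the open pairs TRAV10 and TRAV14-3 lie close together.

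Usage in gut was then compared with usage in liver over the 12 day 6 libraries, with limma on log2(percent + 0.1) for all segments that reached a mean of 0.5% over these libraries. In CD8, 2 of the 17 copies tested rose in gut, TRAV10D and TRAV14D-2, and none fell, while over all 41 segments tested 12.2% were called and 7.32% were called higher in gut. TRAV10D was at 0.862%, 0.887%, 0.927%, 1.00%, 1.14% and 1.43% in the liver libraries and at 1.25%, 1.30%, 1.32%, 1.37%, 1.60% and 1.62% in the gut libraries. The WT liver library of number 2, at 1.43%, lay within the gut range and the other 5 lay below it. The log2 change of TRAV10D was 0.42 (SE 0.119, adjusted p = 0.0341 by limma with Benjamini-Hochberg adjustment). TRAV14D-2 ran from 0.677% over a median of 0.789% to 0.852% in liver, and from 0.925% over 0.928% to 1.03% in gut. The 2 tissues did not overlap for TRAV14D-2, as for 12.2% of all segments tested, and its log2 change was 0.25 (SE 0.0766, adjusted p = 0.0450 by limma).

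Neither call held widely. In fits that left out 1 of the 12 libraries, TRAV10D lost the call in 9 (adjusted p up to 0.0966 by limma) and TRAV14D-2 in 11 (up to 0.118), with a positive log2 change in all. TRAV10D stayed called without the WT or the STAT3ko liver library of number 2 or the STAT3koPD-1ko gut library of number 1, and TRAV14D-2 only without the WT liver library of number 2. Without the gut libraries of number 2 no copy was called, the log2 changes being 0.32 for TRAV10D and 0.28 for TRAV14D-2 with adjusted p of 0.162 and 0.140. The listed share moved with the tissue, at 97.3% ± 0.631 (SD, n = 6) in liver and 87.2% ± 8.30 in gut, and its part in the result was not tested.

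Of the other CD8 copies, TRAV10N, TRAV7D-5, TRAV12D-2 and TRAV7N-6 had an unadjusted p below 0.05, as had 34.1% of all segments, and did not pass after adjustment. TRAV10N was at 1.62% ± 0.249 (SD, n = 6) in liver and 1.99% ± 0.278 in gut, a log2 change of 0.28 (SE 0.108, adjusted p = 0.0915 by limma). The unlettered TRAV10 was at 1.74% ± 0.249 in liver and 2.19% ± 0.246 in gut. Its log2 change was 0.32 (SE 0.105, adjusted p = 0.0592 by limma), so the higher mean in gut was not particular to TRAV10D. TRAV12D-2 was at 1.148% ± 0.0948 in liver and 0.980% ± 0.113 in gut, a log2 change of -0.21 (SE 0.0912, adjusted p = 0.114). Over the 17 copies 13 log2 changes were positive, with a median of 0.12 against 0.08 over all segments tested. Of the unlettered counterparts, 2 of 17 were called, with a median log2 change of 0.02.

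**Figure D3:**
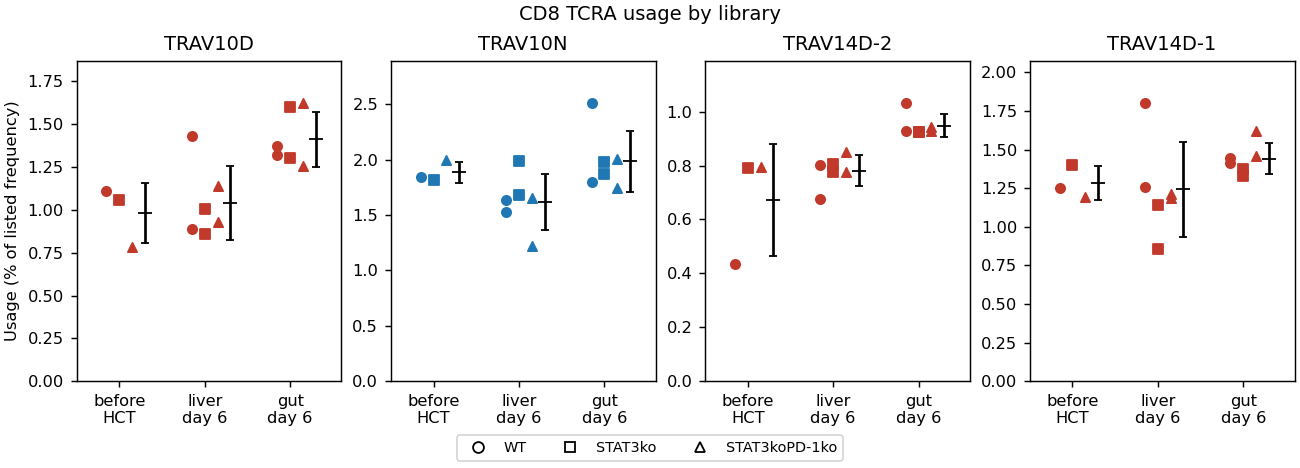
Usage in the CD8 libraries, in percent of the listed frequency (vertical axis), of TRAV10D, TRAV10N, TRAV14D-2 and TRAV14D-1 by place, with the mean and SD beside the points and a symbol for each genotype. The gut points of TRAV14D-2 (0.925% to 1.03%) lie above its liver points (0.677% to 0.852%), whereas those of TRAV10D overlap at 1 liver library.

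In CD4 none of the 20 copies tested passed by limma in gut against liver, while 15.2% of all 46 segments tested were called, 2.17% as higher in gut and 13% as lower. This count of 0 depended on the processing, since 4 copies were called with clonotypes above 0.1% of a library left out and 1 with usage not divided by the listed sum. The share of all segments called under these settings is not given here, so the counts are not read as particular to the copies. None of the 20 copies had gut and liver libraries that did not overlap, which held for 4.35% of all 46 segments. TRAV12D-2, TRAV7D-5 and TRAV5D-4 had an unadjusted p below 0.05, as had 26.1% of all segments. TRAV12D-2 was at 0.750% ± 0.193 (SD, n = 6) in liver and 0.555% ± 0.0504 in gut, a log2 change of -0.35 (SE 0.138, adjusted p = 0.0991 by limma). TRAV7D-5 was at 1.97% ± 0.406 and 2.52% ± 0.455, a log2 change of 0.35 (SE 0.150, adjusted p = 0.137). TRAV12D-2 had the lower and TRAV7D-5 the higher mean in gut in both CD4 and CD8. The median log2 change of the copies was 0.05, against -0.04 over all segments. In the test of a different tissue effect between genotypes (limma interaction), 0 copies passed in either table and 0 had an unadjusted p below 0.05. No share over all segments is set beside these counts, so they are not read as particular to the copies.

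Usage was compared between STAT3ko and WT and between STAT3koPD-1ko and STAT3ko, and no copy passed in these contrasts as fitted. STAT3koPD-1ko was not compared with WT for usage. In CD4, STAT3ko against WT called 0 of 20 copies and 0% of all segments by limma, with 0 copies at an unadjusted p below 0.05, and the log2 changes ran from -0.21 to 0.23. STAT3koPD-1ko against STAT3ko likewise called 0 of 20 copies and 0% of all segments, with 0 copies and 2.17% of all segments at an unadjusted p below 0.05. In CD8, STAT3ko against WT called 0 of 17 copies and 0% of all segments by limma. It called 1 copy with no filter on usage or with clonotypes above 0.1% left out, where the share of all segments is not given here. TRAV14D-1 (log2 change -0.32, SE 0.136) and TRAV4N-4 (0.29, SE 0.113) had an unadjusted p below 0.05, as had 12.2% of all segments, with adjusted p of 0.284 and 0.246 by limma. STAT3koPD-1ko against STAT3ko called 0 of 17 copies and 2.44% of all segments, with 1 copy, TRAV7D-3, and 9.76% of all segments at an unadjusted p below 0.05 (TRAV7D-3 log2 change 0.40, SE 0.147, adjusted p = 0.300 by limma). The median SE of the copies in these contrasts was 0.156 in CD4 and 0.135 in CD8 on the log2 scale. A log2 change of 0.40 (TRAV7D-3 in CD8) did not pass, so changes of that size can be missed with these libraries.

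Nor did any copy pass the test of day 6 against before HCT. In CD4, 0 of 20 copies and 0% of all 47 segments were called by limma, with 4 copies and 17% of all segments at an unadjusted p below 0.05. TRAV7D-2 was at 6.18% ± 0.693 (SD, n = 3) before HCT, 6.92% ± 0.560 (n = 6) in liver and 7.86% ± 0.758 (n = 6) in gut, a log2 change of 0.25 (SE 0.112, adjusted p = 0.233 by limma). TRAV6N-7 went from 2.83% ± 0.408 to 2.45% ± 0.295 and 2.11% ± 0.170, a log2 change of -0.30 (SE 0.121, adjusted p = 0.233 by limma). TRAV4N-4 and TRAV5D-4 had log2 changes of 0.29 and 0.33. In CD8, 0 of 17 copies passed and 4.88% of all 41 segments were called. TRAV14D-2 had an unadjusted p below 0.05, as had 9.76% of all segments, at 0.673% ± 0.208 (n = 3) before HCT (log2 change 0.35, SE 0.121, adjusted p = 0.125 by limma). Without the liver libraries of number 1 no copy passed in either table.

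The TRAJ partners of the copies set them apart from their unlettered counterparts in every library. The mean TRAJ number, weighted by frequency, was 26.2 ± 1.04 (SD, n = 15) for the D copies in CD4, 24.8 ± 1.22 for the N copies and 33.1 ± 0.935 for the unlettered counterparts. In CD8 the means were 23.8 ± 0.930, 22.8 ± 1.14 and 31.7 ± 0.618. The D copies lay below the unlettered counterparts by 6.85 ± 0.700 TRAJ numbers in CD4 and the N copies by 8.30 ± 0.896, in 15 of 15 libraries each, and in CD8 also in 15 of 15. TRAJ names are the more stable part of the tables, and the members are chosen by their TRAV name only, but the same CDR3 often changes copy class between the tables.

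TRAJ20 and lower numbers, the far end of the array, made up 32.6% ± 2.76 (SD, n = 15) of D usage and 35.7% ± 3.94 of N usage in CD4, against 13.98% ± 2.02 for the unlettered counterparts. At the near end, TRAJ40 and higher numbers made up 16.5% ± 2.16, 13.7% ± 3.01 and 31.8% ± 2.59. In CD8 the far end held 36.4% ± 2.49 of D, 40.3% ± 3.50 of N and 15.3% ± 1.27 of unlettered usage. The middle, TRAJ39 to TRAJ21, took a similar share in all classes, 50.2% to 54.9% over the tables and classes. The most frequent partners in CD4 were TRAJ27 for the D copies (6.52% ± 0.905) and TRAJ31 for the N copies (7.25% ± 1.21), and in CD8 TRAJ22 for both (9.53% ± 1.14 and 8.03% ± 1.22).

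Among the CDR3 whose copy class was the same in both tables (2207 with a D copy, 1613 with an N copy and 6056 with an unlettered counterpart), the distance was larger. In CD4 the mean TRAJ number was 24.1 ± 1.19 for D, 20.9 ± 1.28 for N and 35.35 ± 1.095 for unlettered copies, and in CD8 21.6 ± 0.915, 19.97 ± 0.725 and 34.2 ± 0.952. This choice of CDR3 was made after the names were seen to change between tables.

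**Figure D4:**
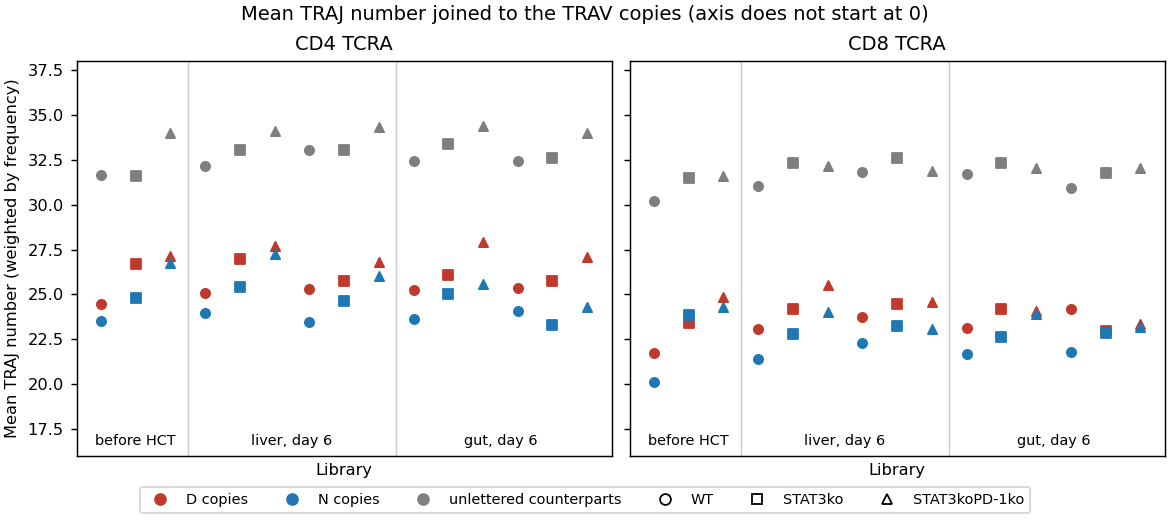
Mean TRAJ number weighted by frequency (vertical axis, not from 0) joined to the D copies, the N copies and the unlettered counterparts in each library of the CD4 and CD8 tables, ordered by place, with a symbol for each genotype. In all libraries of both tables the unlettered counterparts (CD4 mean 33.1, CD8 mean 31.7) lie above the D and N copies, and within a place the WT points are mostly the lowest.

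The D and N copies lay closer to each other. Over all usage the D copies had the higher mean TRAJ number by 1.45 ± 0.722 (SD) in 15 of 15 CD4 libraries and by 1.09 ± 0.783 in 14 of 15 CD8 libraries. Over matched families, those with both copies at a mean usage of at least 0.1%, the sign was the other way. There the D copy was lower than the N copy by a mean TRAJ difference of -0.73 ± 0.479 over 8 families in CD4 (15 of 15 libraries below 0) and -0.87 ± 1.39 over 11 families in CD8 (11 of 15 below 0). This sign rested on family 14-2, whose values follow. Without it the D copies were the higher by 0.523 ± 0.703 over 7 families in CD4 (13 of 15 libraries above 0) and by 0.404 ± 1.29 over 10 families in CD8 (11 of 15), both within the SD over libraries. With each listed clonotype counted once, the CD4 difference over all 8 families was 0.26. Among the CDR3 whose copy class was the same in both tables, the D copies were the higher by 3.23 ± 0.963 in CD4 and 1.597 ± 0.803 in CD8, in 15 of 15 libraries each. Over all usage and over these CDR3, D and N differed by less than either differed from the unlettered counterparts in the same table.

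Single families behaved differently. The D and N copies of families 6-7, 5-4, 14-3, 4-3 and 12-2 all had mean TRAJ numbers between 20.7 and 26.7 in CD4, against 33.1 to 45.9 for their unlettered counterparts. TRAV14D-3-DV8 (22.3 ± 2.19) and TRAV14N-3 (24.3 ± 1.82) stood far from TRAV14-3 (45.9), the widest distance among families with both copies at 0.1% or more in CD4. In family 10 neither copy stood apart, and in family 7-4 only the N copy did. TRAV10D (28.3 ± 1.54), TRAV10N (27.5 ± 2.02) and TRAV10 (27.5) were level in CD4, and TRAV7D-4 (28.4 ± 2.83) was level with TRAV7-4 (28.3), above TRAV7N-4 (22.9 ± 1.60). The lowest mean TRAJ number among copies of at least 0.1% usage belonged to TRAV12N-3 in CD4 (20.3 ± 1.40) and to TRAV4D-3 in CD8 (20.03 ± 2.12).

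TRAV14N-2 had the highest mean TRAJ number of the copies of at least 0.1% usage in both tables. It was at 39.1 ± 2.55 (SD, n = 15) in CD4 and 41.7 ± 5.71 in CD8, and TRAV14D-2 at 29.6 ± 1.16 and 28.1 ± 1.102. The D name was the lower in 15 of 15 libraries of each table, although the reference transcripts of the pair have no mismatch over 464 bases. The N name rested on few CDR3, 65 in the CD4 and 14 in the CD8 table.

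**Figure D5:**
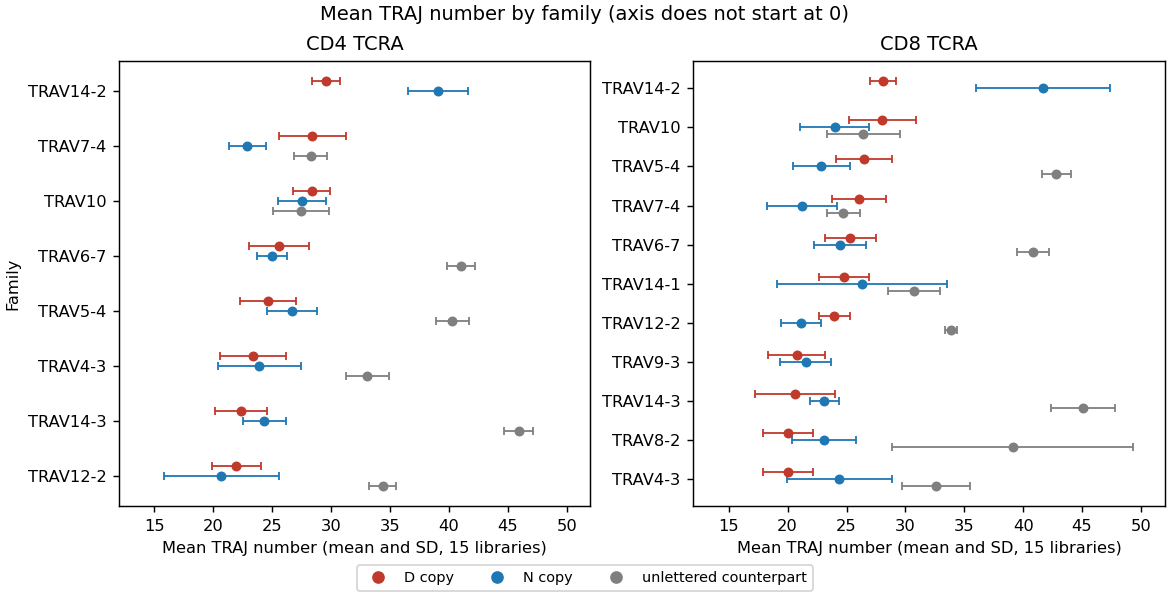
Mean TRAJ number (horizontal axis, not from 0) with SD over 15 libraries for the D copy, the N copy and the unlettered counterpart of each family in which both copies had a mean usage of at least 0.1%. In most families the unlettered copy lies to the right of both others, in families 10 and 7-4 it does not, and TRAV14N-2 lies to the right of TRAV14D-2 in both tables.

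Along the locus the mean TRAJ number rose toward the TRAJ array over all segments of at least 0.1% usage, with a Pearson r of 0.58 and a Spearman rho of 0.64 over 78 segments in CD4. Over the 38 D and N copies alone the values were -0.11 and -0.21. In CD8 they were 0.58 and 0.61 over 80 segments and -0.04 and -0.17 over 40 copies. These are descriptions across segments, which share libraries and clonotype names and are not independent replicates.

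Mean TRAJ number was also compared between tissues and genotypes. In gut against liver no copy passed by limma, 0 of 20 in CD4 and 0 of 17 in CD8, and 0% of all segments were called in either table. At an unadjusted p below 0.05 there was 1 copy in CD4 (6.52% of all segments), TRAV14N-3 (difference -1.86, SE 0.712, adjusted p = 0.294 by limma), and 0 in CD8 (2.44% of all segments).

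Genotype moved with the TRAJ partners, a comparison that was chosen after the values had been seen. In CD4 the D copies of the 4 WT day 6 libraries had mean TRAJ numbers from 25.1 to 25.4, those of the 4 STAT3ko libraries from 25.8 to 27.0, and those of the 4 STAT3koPD-1ko libraries from 26.8 to 27.9. The WT libraries did not overlap either of the others, but with CDR3 found in more than 9 of the 18 joined libraries left out, STAT3ko (from 25.12) reached the highest WT value (25.14). The N copies were at 23.5 to 24.1 in WT, 23.3 to 25.4 in STAT3ko and 24.3 to 27.3 in STAT3koPD-1ko, where only STAT3koPD-1ko lay fully above WT. This order of the N copies changed with the clonotypes used. Without the widely shared CDR3 STAT3koPD-1ko (from 22.5) overlapped WT (up to 24.02), and without clonotypes above 0.1% STAT3ko (from 24.8) also lay above WT (up to 24.6). The unlettered counterparts moved in the same direction, from 32.1 to 33.1 in WT to 34.01 to 34.4 in STAT3koPD-1ko, so the difference was not particular to the D and N copies. In CD8 the N copies of STAT3koPD-1ko (23.07 to 24.01) lay above those of WT (21.4 to 22.3), while the D copies (23.4 to 25.6 against 23.1 to 24.2) overlapped. The N copies of STAT3ko (22.65 to 23.2) also lay above those of WT in CD8. Both held with each clonotype counted once, without clonotypes above 0.1% and without the widely shared CDR3, whereas the D copies of STAT3koPD-1ko lay above WT with each clonotype counted once or with clonotypes above 0.1% left out. The CD8 unlettered counterparts of STAT3koPD-1ko (from 31.85) cleared those of WT (up to 31.81) narrowly, and overlapped them without clonotypes above 0.1% or without the widely shared CDR3. The V segments that are neither copies nor counterparts were at 31.52 to 32.35 in STAT3koPD-1ko and 30.17 to 31.02 in WT, and did not overlap under any of these choices. Libraries labelled before HCT, 1 per genotype, were at 24.5 in WT, 26.7 in STAT3ko and 27.1 in STAT3koPD-1ko for the CD4 D copies, at 23.5, 24.8 and 26.75 for the N copies and at 31.7, 31.6 and 33.98 for the unlettered counterparts. In CD8 they were at 21.7, 23.4 and 24.85 for the D copies, at 20.1, 23.9 and 24.3 for the N copies and at 30.2, 31.5 and 31.6 for the unlettered counterparts. STAT3koPD-1ko thus had a higher value than WT before HCT in each of these classes, from single libraries that share clonotypes with liver library 1 of the same genotype. How many donors stand behind the libraries of a genotype is not given in the sources used here, so genotype and donor cannot be told apart.

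By segment, 19 of the 20 CD4 copies tested had a higher mean TRAJ number in STAT3koPD-1ko than in WT, with a median difference of 1.54, and so had 43 of all 46 segments, with a median of 1.47. In 2 copies, TRAV14D-1 and TRAV14D-3-DV8, all 4 STAT3koPD-1ko libraries lay above all 4 WT libraries, as in 13% of all segments. The same 2 copies passed by limma, against 6.52% of all segments, and 7 copies had an unadjusted p below 0.05, against 34.8% of all segments. TRAV14D-1 was at 27.9, 26.5, 27.9 and 26.6 in the WT day 6 libraries (2 of liver, then 2 of gut) and at 33.3, 29.1, 31.8 and 29.6 in the STAT3koPD-1ko libraries (difference 3.73, SE 1.01, adjusted p = 0.0496 by limma). TRAV14D-3-DV8 was at 21.2, 21.2, 21.1 and 21.8 in WT and at 22.1, 26.3, 24.8 and 23.8 in STAT3koPD-1ko (difference 2.92, SE 0.838, adjusted p = 0.0496 by limma). Both calls were at the edge of the threshold, and each was lost in 11 of the 12 fits that left out 1 library, with adjusted p up to 0.110 by limma and a positive difference in all. TRAV14D-1 stayed called only without the STAT3koPD-1ko liver library of number 2, and TRAV14D-3-DV8 only without that of number 1. Without the gut libraries of number 2, or without the liver libraries of number 1, 0 copies were called.

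STAT3ko against WT and STAT3koPD-1ko against STAT3ko called 0 of 20 CD4 copies by limma, with 0% of all segments called in each. There 2 and 3 copies had an unadjusted p below 0.05, against 10.9% and 19.6% of all segments. In CD8, STAT3koPD-1ko against WT called 0 of 17 copies and 0% of all segments, with 3 copies and 14.6% of all segments at an unadjusted p below 0.05 and a median difference over the copies of 0.93. TRAV10N had a CD8 difference of 4.42 (SE 1.35, adjusted p = 0.153 by limma), TRAV7D-4 of 3.59 (SE 1.14) and TRAV13N-1 of 2.63 (SE 1.14). TRAV10N and TRAV7D-4 had positive differences in CD4 as well, 2.70 (SE 0.988, adjusted p = 0.0857 by limma) and 3.71 (SE 1.12, adjusted p = 0.0519).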

How the data were processed

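TCR-CDR3 libraries of sorted donor T cells were prepared by the authors with a mouse TCR alpha and beta profiling kit, called with MiXCR and joined with VDJtools. The deposited tables give, per CDR3 amino acid sequence, the fraction of the reads of each library. The authors deposited beside it a count of the joined libraries in which a CDR3 was found, from 2 to 18, used only as a filter. CDR3 of a single library are not listed. The 2 TCRB tables were not used here. Usage was the summed fraction of a V name divided by the listed sum of the library, in percent. Segments that reached a mean of 0.5% in the libraries of a fit were tested with limma 3.58.1 (R 4.3.3) on log2(percent + 0.1), a scale that understates changes of rare segments, with tissue and genotype as terms and Benjamini-Hochberg adjustment within a table and contrast. Mean TRAJ number was tested in the same way without the log. The replicates are separate pools of recipients by the labels, but p-values measure only the spread between these libraries. All 109 V names matched GENCODE genes of GRCm38, from which positions and sequences were taken. Transcripts were aligned pairwise with Biopython 1.88.

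Samples were grouped by the labels. The members and gene lists were chosen with earlier results of these data known. The copies named are those called in a contrast, the 10 most used of each table, and families with both copies at 0.5% or more. Other copies named were chosen after their values were seen. The scripts were tested on simulated data. Same-numbered libraries of different genotypes and tissues did not all deviate together (correlations from -0.15 to 0.61), and the 2 batches that the study names are not tied to the numbers. The effects of other pseudocounts, filters, weights and left-out libraries are given in the closing section.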

Additional observations from a re-analysis of the deposited data

Results flagged for a closer look

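For the 18 named copies, the highest and lowest of the 6 liver and of the 6 gut libraries were checked in each table, 72 groups in all, of which 6 held a library far from the others. The check is meant to flag about 1 in 20 such groups by chance, a rate that was not measured here. In CD4 gut, TRAV12D-2 was at 0.458% in a STAT3ko library against 0.560% to 0.596% in the others, and TRAV12N-3 at 3.03% in a STAT3koPD-1ko library against 1.52% to 1.90%, where 1 clonotype made up 12.5% of the segment. In CD8 gut the WT library of number 2 stood highest for TRAV12N-3, at 9.26% against 7.54% to 7.83%, and for TRAV10N, at 2.52% against 1.74% to 2.01%. TRAV14D-2 was at 1.03% in the WT gut library of number 1 against 0.925% to 0.944%. In CD8 liver, TRAV14N-3 was lowest in the STAT3ko library of number 1, at 0.359% against 0.629% to 0.761%. Of the 6 values, 4 came from gut libraries of number 2, which have the lowest listed shares, and the part of the listed share in these values was not tested.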

How the results depend on the processing

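Counts are of D and N copies called by limma. The shares of all segments called under the same settings are not given here. A change of count is therefore not read as particular to the copies. In CD8 gut against liver, 2 copies became 1 with a pseudocount of 1, no filter, undivided usage, the replicate block or identical copies merged, and 0 with a filter at 0.1%, each clonotype counted once, widely shared CDR3 left out or the gut libraries of number 2 left out (0 to 3 without 1 library). In CD4 gut against liver, 0 became 1 with undivided usage and 4 with clonotypes above 0.1% left out. With those clonotypes left out, 0 became 1 in CD8 STAT3ko against WT, where no filter also gave 1, and in CD8 day 6 against before HCT (0 to 1 without 1 library, 1 being without the STAT3ko library before HCT). For mean TRAJ number in STAT3koPD-1ko against WT, the 2 CD4 copies became 1 with each clonotype counted once, 5 with the replicate block (3 with the block within tissue) and 0 with a filter at 0.1%, widely shared CDR3 left out, or the gut libraries of number 2 or liver libraries of number 1 left out (0 to 1 without 1 library). In CD8, 0 became 1 with each clonotype counted once (0 to 1 without 1 library, 1 being without the STAT3ko or the STAT3koPD-1ko gut library of number 2). The matched D minus N difference of mean TRAJ number reversed in CD4, from -0.73 to 0.26 with each clonotype counted once, 0.0845 with widely shared CDR3 left out and 0.523 without family 14-2 (-0.77 to -0.65 without 1 library), and in CD8 it went from -0.87 to 0.89 with widely shared CDR3 left out and 0.404 without family 14-2 (-0.97 to -0.64 without 1 library). The log2 ratio of D over N kept its value within 1 SD in each table under the alternatives run. Beyond the left-out family, the cause was not tested in these cases. The settings with merged copies, widely shared CDR3, left-out gut libraries and family 14-2 left out, and all genotype comparisons of TRAJ number, were chosen after seeing the data.

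The replicate numbers are not said to pair libraries. Same-numbered gut libraries of different genotypes deviated together (correlations 0.38 to 0.59 in CD4, 0.27 to 0.61 in CD8), while correlations were lower between liver libraries (-0.15 to 0.18 and 0.10 to 0.13) and at -0.08 to 0.27 and -0.02 to 0.28 between gut and liver. With the replicate block, TRAV14D-2 in CD8 gut against liver had an adjusted p of 0.0502 and TRAV10D of 0.00479. A replicate block within tissue changed no call of the usage contrasts between genotypes. Depth is unknown, so rare copies cannot be told from absent ones.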

Other observations

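Single clonotypes of the copies also differed between places, which was noticed in the values and not tested. Frequencies here are in percent of a library. In CD4 the second most frequent N clonotype, TRAV14N-3 joined to TRAJ7, ran from 0.0605% to 0.0859% in the 3 libraries before HCT, from 0.0573% to 0.168% in liver and from 0.210% to 0.443% in gut, so that the 6 gut libraries lay above all others. In CD8 the clonotype of TRAV12N-3 joined to TRAJ15 ran from 0.0374% to 0.541% before HCT, from 0.0135% to 0.260% in liver and from 0.0179% to 0.0735% in gut, with overlap between all places. The clonotype of TRAV7N-6 joined to TRAJ30 had a mean of 0.140% ± 0.180 (SD, n = 6) in CD8 liver, with a highest value of 0.502%.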
